A study of Mus musculus with 40 samples.

Results

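Zfp genes encode zinc finger proteins, most of them DNA-binding proteins built from repeated C2H2 fingers, in which pairs of cysteines and histidines hold a zinc ion. Their RNA was measured in mouse liver before and after partial hepatectomy (PH), the surgical removal of part of the liver, after which the remaining hepatocytes re-enter the cell cycle and the organ regrows. The genes were taken by name: every symbol made of Zfp, a number and at most 1 further letter was included, which gave 302 of the 11119 genes in the tables. The rule uses no measured value, but it was chosen with earlier results of these data known.

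The study holds 40 RNA samples in 9 groups, defined by age, hours after PH and treatment with ATRi, an inhibitor of the DNA damage checkpoint kinase ATR. The ATRi groups, treated at 24 h after PH, were 12 months at 72 h (n = 4 mice), 3 months at 72 h (n = 4) and 12 months at 48 h (n = 3). The untreated groups after PH were 12 months at 72 h (n = 4), 3 months at 72 h (n = 4), 12 months at 48 h (n = 3) and 3 months at 48 h (n = 3), and those at 0 h were 12 months (n = 8) and 3 months (n = 7). Mouse numbers show that all 4 mice of the 12-month 72 h groups, ATRi and untreated, were also in the 0 h group, as were 2 of 4 in each 3-month 72 h group. The labels give no strain, sex or vehicle, and they call the samples both liver and hepatocytes.

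For 8 of the 9 groups the values are the authors' deposited group means, on a log2 scale; single livers (M545, M546, M547 and M548) were deposited for the 12-month ATRi group at 72 h alone. Differences between 2 deposited means are therefore given first as values with no spread of their own, and a difference of 1 or more on the log2 scale is the size counted. Beside them stand calls from limma in which the spread of the 4 single livers was lent to the other groups, written as borrowed spread. The 5 comparisons that include the 12-month ATRi 72 h group were tested with limma, whose error rests on the spread of these 4 livers, and p-values were adjusted over all 11119 genes by the Benjamini-Hochberg method at a threshold of 0.05. Sequencing depth is unknown, since the files hold no counts. Each column has a lowest value that many genes share: between 42 and 118 genes in the 9 columns of means, and between 225 and 278 genes in the single livers, where the value itself was 0.50 in M545, 0.27 in M546, 0.51 in M547 and 0.55 in M548. Of the Zfp genes, 5 to 11 sat at that lowest value in a liver, and Zfp300 did so in all 4.

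The largest class of zinc finger proteins in mammals carries a KRAB box, a short domain at the amino end that recruits the co-repressor Trim28 (KAP1) and with it histone methylation and DNA methylation. KRAB zinc finger proteins are best known for silencing retroviral elements and for keeping the methylation of imprinted genes, and many of them stand in tandem clusters of near copies. A smaller class has a SCAN box, through which the proteins pair with each other.

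Of the 302 genes, 300 could be translated from the GENCODE M21 annotation. A KRAB box was found in 188 of them and not in 112. A SCAN box was found in 12, of which 6 also had a KRAB box. The count of C2H2 fingers had a median of 12 in the KRAB proteins and 7.5 in those without, and 260 of the 300 had 5 or more fingers, against 88 of 10100 other translated genes. In 6 proteins no finger of this pattern was found in the transcript used, which does not show that they have none. Zfp genes were unevenly spread over the genome: 74 lay on chromosome 7, 38 on chromosome 17 and 34 on chromosome 13. Members no more than 300 kb apart formed 13 runs of 5 or more genes with 121 members in all, and 114 members had no other Zfp gene that near.

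The deposited tables do not say how reads were shared among the near copies of a cluster, so the values of such copies are uncertain one by one. Over the 9 group means the Zfp genes had levels from 0.16 to 7.46 on the log2 scale. Their mean level was below 1 for 51 genes and 1 or more for 251. Whether the scale is corrected for transcript length is not given in the sources used here. Levels are therefore compared within a gene, except where genes are grouped in bands of mean level.

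At 72 h after PH the Zfp genes were lower than at 0 h in both ages, by more than the other genes in the tables. The median difference was -0.33 over the 302 genes at 3 months, against -0.09 over all genes, and -0.27 at 12 months, against -0.09 over all genes. At 3 months 247 Zfp genes were below their 0 h level, which is 81.8% against 60.6% of all genes, and at 12 months 237 were, 78.5% against 60.0%. The decrease reached 1 or more in 24 Zfp genes at 3 months, where 2.02% of all genes did, and in 5 at 12 months, where 1.01% of all genes did. No Zfp gene was higher by 1 or more at 72 h in either age, where 2.46% of all genes were at 3 months and 2.92% at 12 months.

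**Figure D1:**
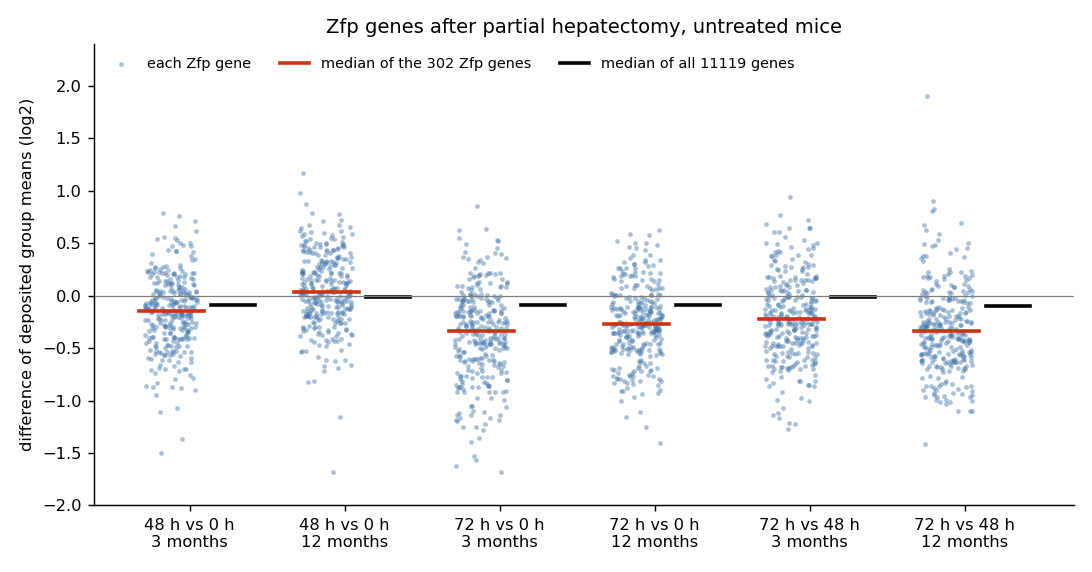
Difference of deposited group means on the log2 scale for each of the 302 Zfp genes (points) in 6 comparisons of untreated livers, with the median of the Zfp genes (red bar) and of all 11119 genes (black bar). The red bar lies below the black one at 72 h against 0 h in both ages, at -0.33 and -0.27 against -0.09.

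The shift was present in each band of mean level from 1 up. Among Zfp genes with a mean level of 1 to 2 the median at 3 months was -0.33, against 0.01 for other genes of the same level. In the band from 2 to 3 it was -0.43 against -0.02, in the band from 3 to 4 it was -0.25 against -0.12, and above 4 it was -0.48 against -0.08. At 12 months the same bands gave -0.27 against 0.04, -0.35 against -0.02, -0.28 against -0.12 and -0.26 against -0.09. Below a level of 1 the gap was smaller, -0.26 against -0.16 at 3 months and -0.21 against -0.18 at 12 months. The lowest value of each column differed between the same groups, at 0.08 at 72 h and 0.39 at 0 h at 3 months, and at 0.05 and 0.38 at 12 months, and its part in the lowest band was not tested.

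The 2 ages are separate groups of mice. Of the 302 genes, 212 were lower at 72 h in both ages (70.2%, against 48.2% of all genes) and 30 were higher in both (9.93%, against 27.6%). Decreases of more than 0.5 in both ages were seen in 49 Zfp genes, 16.2% against 5.56% of all genes. Decreases of more than 1 in both were seen in 5 genes: Zfp354a, Zfp873, Zfp329, Zfp174 and Zfp235.

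**Figure D2:**
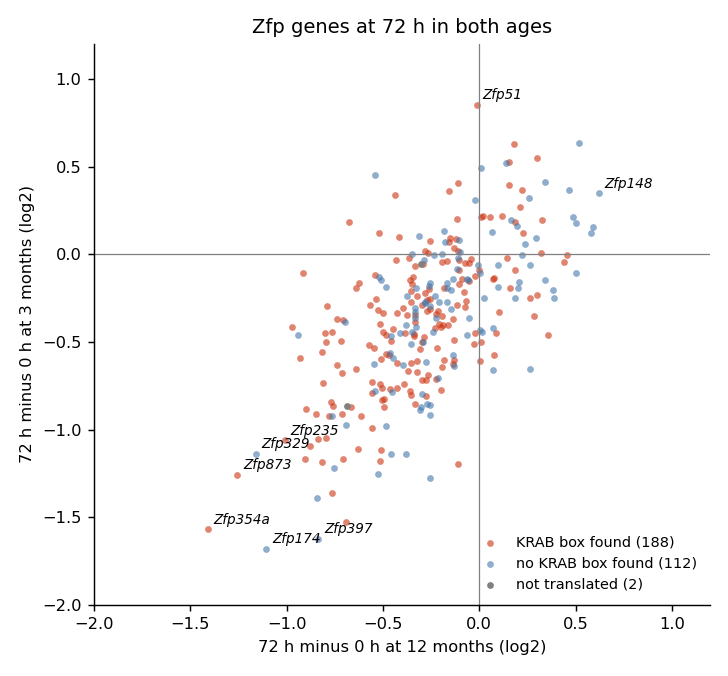
Difference between 72 h and 0 h at 12 months (x axis, log2) and at 3 months (y axis, log2) for each Zfp gene, coloured by whether a KRAB box was found. Of the 302 points, 212 lie to the lower left of the origin, where the gene was lower at 72 h in both ages.

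Zfp354a, also called Kid-1 and first described in rat kidney, encodes a KRAB repressor with 13 fingers. Its level at 3 months was 1.68 at 72 h and 2.38 at 48 h, against 3.25 at 0 h. The 12-month means were 1.78 at 72 h and 2.75 at 48 h, against 3.19 at 0 h. In both ages the level was lower at 72 h than at 48 h, and lower at 48 h than at 0 h. Zfp873, a KRAB gene with 17 fingers, had 1.63 at 72 h against 2.89 at 0 h at 3 months, and 1.498 against 2.75 at 12 months. The SCAN gene Zfp174, whose human counterpart was described as a repressor of growth factor promoters, had 0.97 at 72 h against 2.65 at 0 h at 3 months, and 1.09 against 2.198 at 12 months. For Zfp174 the 48 h means, 2.12 at 3 months and 2.04 at 12 months, lay between those of 72 h and 0 h, and the larger step came between 48 h and 72 h. Zfp329, with 12 fingers and no KRAB box, had 2.68 at 72 h against 3.81 at 0 h at 3 months, and 2.42 against 3.59 at 12 months. The KRAB gene Zfp235 had 3.02 at 72 h against 4.08 at 0 h at 3 months, and 2.58 against 3.58 at 12 months. Its 48 h means of 2.97 at 3 months and 3.07 at 12 months show that at 3 months it was already as low at 48 h as at 72 h, and at 12 months it lay between its 0 h and 72 h levels.

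**Figure D3:**
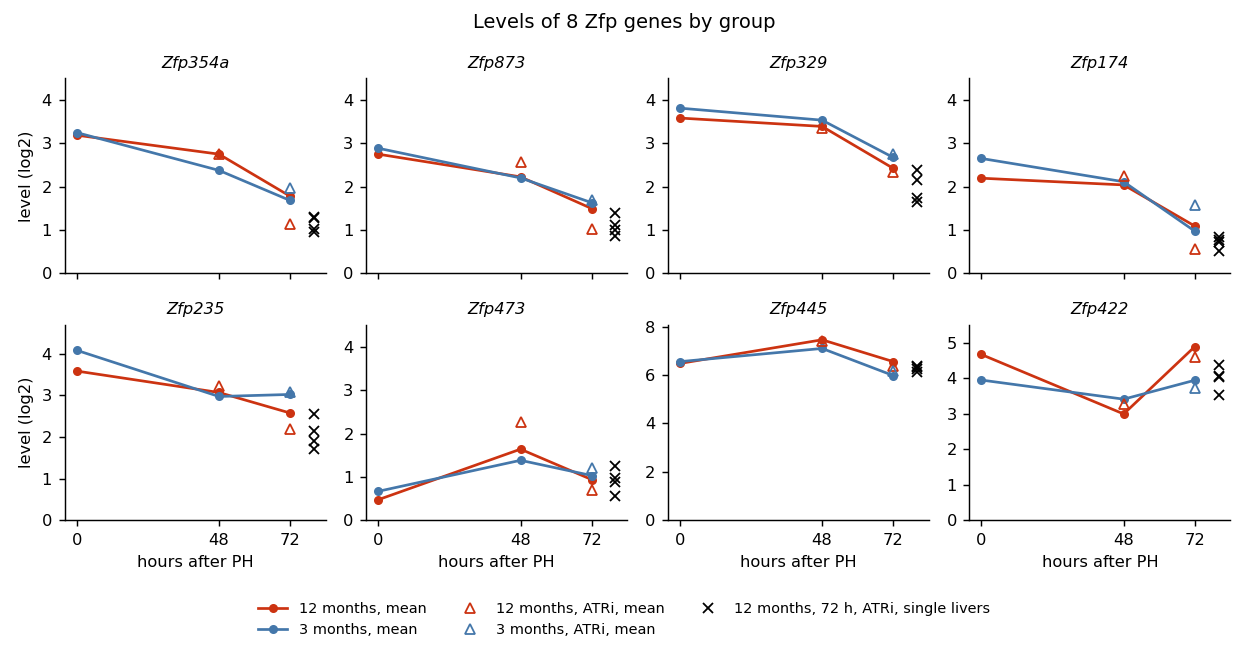
Level (log2) of 8 Zfp genes at 0, 48 and 72 h after PH as deposited group means, in red for 12 months and blue for 3 months, with ATRi means as open triangles and the 4 single livers of the 12-month ATRi group at 72 h as crosses set to the right. Zfp354a, Zfp873, Zfp329, Zfp174 and Zfp235 are lower at 72 h than at 0 h in both ages, Zfp473 and Zfp445 are highest at 48 h in untreated livers, and Zfp422 is lowest at 48 h.

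The promoters of Zfp174 and Zfp873 are shown because these genes were among the 5 that were lower by more than 1 in both ages, and that of Zfp473 because it moved the other way at 48 h. Each is the RefSeq window of GRCm38.p6 from 250 bases before to 50 bases after the gene's start, written along the gene's strand with every CG in capitals: Zfp174 at chr16:3846973-3847272 on the plus strand, Zfp873 at chr10:82047873-82048172 on the plus strand and Zfp473 at chr7:44748568-44748867 on the minus strand.
Zfp174: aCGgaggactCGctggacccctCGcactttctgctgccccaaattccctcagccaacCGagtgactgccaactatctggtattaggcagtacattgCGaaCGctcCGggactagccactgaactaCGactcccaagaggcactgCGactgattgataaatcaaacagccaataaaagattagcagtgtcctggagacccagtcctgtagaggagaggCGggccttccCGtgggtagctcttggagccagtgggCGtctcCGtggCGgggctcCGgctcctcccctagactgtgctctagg
Zfp873: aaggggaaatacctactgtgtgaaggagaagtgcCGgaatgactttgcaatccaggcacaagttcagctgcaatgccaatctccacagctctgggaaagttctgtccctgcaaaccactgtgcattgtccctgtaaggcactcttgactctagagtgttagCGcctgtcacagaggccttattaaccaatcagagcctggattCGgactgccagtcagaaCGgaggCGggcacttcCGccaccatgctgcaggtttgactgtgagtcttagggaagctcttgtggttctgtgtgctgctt
Zfp473: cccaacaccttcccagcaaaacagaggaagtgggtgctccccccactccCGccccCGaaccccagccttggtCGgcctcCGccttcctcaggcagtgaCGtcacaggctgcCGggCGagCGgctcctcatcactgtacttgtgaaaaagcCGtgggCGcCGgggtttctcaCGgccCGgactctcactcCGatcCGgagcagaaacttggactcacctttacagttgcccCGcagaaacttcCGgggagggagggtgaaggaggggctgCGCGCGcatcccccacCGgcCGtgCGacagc

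The Zfp873 window holds 6 CG and is 52.0% G or C, that of Zfp174 holds 15 and is 57.7%, and that of Zfp473 holds 23 and is 65.7%. Over the 255 Zfp genes with a RefSeq promoter the median was 14 CG and 54.7% G or C, against 20 and 60.3% over 8236 measured genes. Motifs were searched on both strands, as letters. CCGGAAG, the core bound by ETS factors, was in 21.6% of the Zfp promoters and 16.02% of those of measured genes. GGGCGG, the GC box of SP and KLF factors, was in 44.7% against 61.4%. ACTACAA, part of the motif of the factor ZNF143, was in 7.45% against 4.20%, and TATAAA was in 5.49% against 7.80%. The Zfp473 window has 1 match to CCGGAAG and 1 to GGGCGG, and those of Zfp174 and Zfp873 have neither. These matches describe the letters of the windows and nothing further.

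At 3 months the lowest differences at 72 h against 0 h after that of Zfp174 (-1.68) were those of Zfp397 (-1.62), Zfp354a (-1.57), Zfp626 (-1.53), Zfp839 (-1.39) and Zfp709 (-1.36). Zfp397 is a SCAN gene, Zfp626 and Zfp709 are KRAB genes, and Zfp839 was among those with no C2H2 finger found. The 12 SCAN genes had a median of -0.58 at 3 months, with 12 of 12 below 0, and -0.45 at 12 months, with 11 of 12 below 0. The highest difference at 3 months was 0.85 for Zfp51, a KRAB gene with 2.59 at 72 h against 1.74 at 0 h, and at 12 months Zfp51 had 1.83 against 1.84. At 12 months the highest was 0.62 for Zfp148 (ZBP-89), a GC-box binding factor, with 2.66 at 72 h against 2.04 at 0 h. Zfp148 was also higher at 3 months, by 0.35.

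KRAB genes were a little lower than the rest. Their median difference at 72 h was -0.38 at 3 months and -0.31 at 12 months, against -0.25 and -0.21 for the 112 translated genes without a KRAB box. At 12 months 83.5% of the KRAB genes were below their 0 h level, against 69.6% of those without. The difference between the classes was not tested. Outside the Zfp names, 14 further genes had a KRAB box, and their medians were -0.56 at 3 months and -0.37 at 12 months, with 12 of 14 below 0 in each age.

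The longest run of Zfp genes lies on chromosome 13, from 67038596 to 67827002 (GRCm38), and holds 23 Zfp genes from Zfp712 to Zfp273, all with a KRAB box. This is the locus of the regulator of sex-limitation genes Rsl1 and Rslcan18, KRAB genes under other names; Rsl1 is known to repress genes with male-biased expression in female mouse liver. At 72 h 21 of the 23 were below their 0 h level at 3 months, with a median of -0.49, and 23 of 23 at 12 months, with a median of -0.52. In this run Zfp874b had 1.87 at 72 h against 2.96 at 0 h at 3 months, and 1.57 against 2.46 at 12 months. Zfp738 had 1.59 against 2.51 at 3 months, and 1.40 against 2.18 at 12 months. The exceptions at 3 months were Zfp874a, higher by 0.12, and Zfp85, higher by 0.18. Rslcan18 had 1.92 at 72 h against 2.80 at 0 h at 3 months and 1.72 against 2.72 at 12 months, and Rsl1 had 1.53 against 1.62 and 1.14 against 1.57.

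A shorter run on chromosome 11, from 50811086 to 51072799, holds Zfp354c, Zfp879, Zfp454, Zfp2, Zfp354b and Zfp354a. All 6 were lower at 72 h in both ages, with medians of -0.89 at 3 months and -0.76 at 12 months. Zfp2, the gene of this run without a KRAB box, had 2.48 at 72 h against 3.41 at 0 h at 3 months and 2.68 against 3.44 at 12 months. The run of Zfp60 to Zfp850 on chromosome 7 was lower in all 6 genes too, with medians of -0.86 and -0.59. By contrast the 11 KRAB genes of the run from Zfp677 to Zfp943 on chromosome 17 had medians of -0.14 and -0.16, with 6 and 7 of 11 below 0. Near copies share sequence and perhaps reads, so the genes of a run are not independent observations.

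When the spread of the 4 ATRi livers was lent to all groups, an assumption the files cannot check, limma put 88 Zfp genes below and 3 above at 72 h against 0 h at 3 months, where 10.5% of all genes were called lower and 4.63% higher. At 12 months it put 52 below and 1 above, against 8.30% and 4.51% of all genes. Without liver M547 the 12-month counts were 24 below and 0 above, against 2.84% and 2.83% of all genes, and without M548 they were 25 and 0, against 3.37% and 2.93%. In both ages at once 37 Zfp genes were called lower (12.3%, against 4.60% of all genes), Zfp354a, Zfp873, Zfp329, Zfp174 and Zfp235 among them. That count was 15 without M547 (1.53% of all genes) and 17 without M548 (1.83%), and of the 5 genes Zfp235 alone was lost, without M548. The fit treats the groups as separate mice, although they share some.

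Markers of other cells moved between the same groups. The 6 Kupffer cell or macrophage markers had a summed level (log2) of 8.20 at 72 h against 7.72 at 0 h at 3 months, with 4 of 6 higher, and 9.63 against 8.52 at 12 months, with 6 of 6 higher. The 3 neutrophil markers measured were at 1.80 against 2.07 at 3 months and 5.81 against 4.91 at 12 months, with 0 of 3 and 2 of 3 higher. The 5 hepatocyte markers measured were at 16.07 against 15.17 and at 16.26 against 15.64, with 3 of 5 higher at 3 months and 2 of 5 at 12 months. Their part in the Zfp differences was not tested. In bulk liver fewer cells of a type and less RNA per cell cannot be told apart.

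At 48 h the ages differed in value. At 3 months the Zfp median was -0.15 against -0.09 over all genes, with 4 genes lower by 1 or more, where 2.67% of all genes were, and 0 higher, where 3.76% were. At 12 months the median was 0.04 against -0.02, with 1 gene higher, where 3.26% of all genes were, and 2 lower, where 1.85% were. With borrowed spread limma called 6 Zfp genes higher and 22 lower at 3 months, against 6.49% and 7.06% of all genes, and 8 higher and 5 lower at 12 months, against 5.46% and 4.7%. With centred columns the 12-month split turned, to 6 higher and 13 lower, against 4.87% and 7.09% of all genes. At 3 months the counts were 1 and 9 without M547, against 4.42% and 3.57% of all genes, and 2 and 10 without M548, against 4.90% and 4.26%. At 12 months they were 3 and 3 without M547, against 3.53% and 2.29%, and 5 and 3 without M548, against 3.86% and 2.55%. The gene higher by more than 1 at 12 months was Zfp473 (ZFP100), a component of the U7 complex that processes the RNAs of replication-dependent histones. Zfp473 had 1.64 at 48 h against 0.47 at 0 h at 12 months, and 1.38 against 0.67 at 3 months. At 72 h it stood lower again, at 0.94 at 12 months and 1.03 at 3 months. The 12-month level of Zfp473 at 0 h was near the lowest value of that column, 0.38, and the lowest value at 48 h was 0.26. The part of these lowest values in its difference was not tested.

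The same times were those of cell division: the 6 markers of dividing cells (Mki67, Top2a, Ccnb2, Cdk1, Mcm5 and Rrm2) were all higher at 48 h than at 0 h, with medians of 3.91 at 3 months and 3.93 at 12 months, and still higher than at 0 h at 72 h, with 2.86 and 3.07. Zfp445, which with Zfp57 maintains methylation at imprinted genes, had 7.46 at 48 h against 6.48 at 0 h at 12 months, and 7.10 against 6.55 at 3 months. At 72 h its level was 6.55 at 12 months and 5.98 at 3 months. The KRAB gene Zfp418 had 1.86 at 48 h against 0.99 at 0 h at 12 months and 1.63 against 1.01 at 3 months. Zfp473, Zfp445 and Zfp418 were thus higher at 48 h in both ages. At 3 months Zfp54 (0.79) and Zfp12 (0.76) led, and Zfp12 had 1.68 at 48 h against 1.88 at 0 h at 12 months.

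Several genes without a KRAB box were lowest at 48 h. Zfp691 had 2.11 at 48 h against 3.61 at 0 h at 3 months, and 2.48 against 3.30 at 12 months. Zfp467, a factor known to favour adipocytes over bone-forming cells, had 4.71 against 6.08 at 3 months and 4.58 against 5.74 at 12 months. Zfp467 alone of the Zfp genes was lower by more than 1 in both ages at 48 h. Zfp422 (Krox-26), described in tooth development, had 2.996 at 48 h against 4.67 at 0 h at 12 months, and 3.41 against 3.95 at 3 months. At 72 h Zfp422 stood at 4.90 at 12 months and 3.95 at 3 months, so that its 12-month difference between 72 h and 48 h, 1.90, was the only increase of 1 or more among Zfp genes, where 3.32% of all genes had one.

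Between 48 h and 72 h the median Zfp difference was -0.22 at 3 months, against -0.02 over all genes, and -0.34 at 12 months, against -0.10. Decreases of 1 or more were seen in 8 Zfp genes at each age, where 3.04% of all genes were at 3 months and 1.89% at 12 months. With borrowed spread limma called 2 higher and 22 lower at 3 months, against 1.39% and 4.4% of all genes, and 1 higher and 30 lower at 12 months, against 2.94% and 4.25%. At 3 months the counts were 0 and 0 without M547 (75 at an unadjusted p under 0.05), against 0.0809% and 0.450% of all genes, 0 and 3 without M548, against 0.189% and 0.791%, and 0 and 13 without M545, against 1.19% and 3.32%. At 12 months they were 1 and 5 without M547, against 1.12% and 0.953%, 1 and 2 without M548, against 0.764% and 0.854%, and 2 and 18 without M545, against 3.08% and 3.42%. With centred columns the 12-month counts were 3 and 18, against 3.61% and 3.05%. Neutrophil markers were at 5.81 at 72 h and 1.98 at 48 h at 12 months, and at 1.80 and 2.36 at 3 months. Macrophage markers were at 9.63 and 7.65 at 12 months and at 8.20 and 7.96 at 3 months, and the part of these markers was not tested. The KRAB gene Zfp101 had the lowest difference at 12 months, with 1.54 at 72 h against 2.95 at 48 h, and 1.62 against 2.85 at 3 months. Relative to the median of all genes the 12-month count was 3, since the shift of all genes was -0.10.

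Before PH the median difference of 12-month from 3-month livers was -0.13 over the Zfp genes, against -0.05 over all genes, and 215 of 302 (71.2%, against 61.4% of all genes) were lower. Decreases of 1 or more were seen in 2 Zfp genes, where 0.396% of all genes were, and increases in 0, where 0.872% were. With borrowed spread limma called 2 Zfp genes higher and 15 lower, against 2.45% and 2.38% of all genes, and none without M547 or without M548, where 66 and 74 had an unadjusted p under 0.05. Without M545 it called 1 and 9, against 2.37% and 2.02% of all genes, and with centred columns 3 and 10, against 3.26% and 1.69%. The KRAB gene Zfp871 had 4.88 in 12-month livers against 5.93 in 3-month livers, and the KRAB gene Zfp689 had 1.51 against 2.55. The largest increase was 0.89 for Zfp428, with 3.24 in 12-month livers and 2.35 in 3-month livers. Neutrophil markers moved with age as well, at 4.91 in 12-month livers and 2.07 in 3-month livers, and their part was not tested. At 48 h the median age difference was 0.07 and at 72 h it was -0.07, against 0.03 and -0.03 over all genes. The KRAB gene Zfp12 was the single Zfp gene lower by 1 or more at 48 h, where 0.576% of all genes were, with 1.68 in 12-month livers and 2.73 in 3-month livers. None was higher at 48 h, where 0.782% of all genes were, and at 72 h none reached 1 in either direction, where 1.97% of all genes were higher and 0.773% lower. With borrowed spread limma called 0 Zfp genes at 48 h (18 at an unadjusted p under 0.05), against 0.0719% of all genes higher and 0.054% lower, and 0 higher and 1 lower at 72 h, against 1.12% and 0.746%, and that 1 was lost without M545, M547 or M548.

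Genes with a role known from other work were grouped by that role. For every such group the shares over all genes are the same. Of all genes 60.6% were lower at 72 h than at 0 h at 3 months and 60.0% at 12 months, with a median of -0.09 in each age. Of the RNA-binding members (Zfp106, Zfp326, Zfp346, Zfp385a and Zfp638), 5 of 5 were lower at 72 h at 3 months, with a median of -0.19, and 3 of 5 at 12 months, with a median of -0.06. Zfp346 (JAZ), a binder of double-stranded RNA, had 1.55 at 72 h against 2.83 at 0 h at 3 months and 1.99 against 2.25 at 12 months. Zfp638, a factor in the silencing of unintegrated retroviral DNA, had 3.14 against 3.41 and 2.86 against 3.07.

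Of the 6 members linked to mitosis and genome stability, 4 were lower at 72 h at 3 months and 5 at 12 months, with medians of -0.27 and -0.17. Zfp207 (BuGZ), which loads the checkpoint protein Bub3 in mitosis, had 6.63 at 72 h against 6.62 at 0 h at 3 months and 6.45 against 6.55 at 12 months. Zfp655, a partner of the cyclin-dependent kinase Cdk4, had 4.64 against 5.42 and 4.75 against 5.29. Zfp451, a SUMO ligase, had 2.59 against 3.03 and 2.57 against 2.81. None of the 6 reached a difference of 1. Of all genes 2.02% were lower by 1 or more at 3 months and 1.01% at 12 months, and 2.46% and 2.92% were higher.

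Of the 11 members linked to co-repressors and imprinting, 6 were lower at 72 h in each age, where 60.6% and 60.0% of all genes were. Their medians were -0.14 and -0.02, against -0.09 over all genes in each age. Zfp281, a factor of pluripotent cells, had 3.44 at 72 h against 4.58 at 0 h at 3 months and 4.04 against 4.42 at 12 months. Zfp809, which recognises and silences murine leukaemia proviruses, had 5.41 against 5.58 and 5.46 against 5.56. Zfp57 had 1.35 against 0.94 at 3 months and 0.89 against 0.999 at 12 months, levels near the bottom of the scale. Of the 8 members linked to lipid and metabolic regulation, 4 were lower at 3 months and 2 at 12 months, with medians of 0.06 and 0.39. Zfp407, which acts with PPAR gamma in fat cells, had 0.92 at 72 h against 0.76 at 0 h at 3 months and 1.38 against 0.79 at 12 months. Of the 3 linked to ribosome biogenesis, 2 were lower at 72 h in each age, with medians of -0.445 and -0.131. Zfp622 had 4.81 against 5.25 at 3 months and 5.18 against 5.53 at 12 months. Zfp593 was higher, at 1.546 against 1.055 and 1.178 against 1.168.

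The genes of the machinery that KRAB proteins recruit had medians nearer to 0 than those of the Zfp genes at 72 h. Of 21 co-repressor genes measured, including Trim28, Cbx and Hdac genes and histone and DNA methyltransferases, 12 were lower at 72 h at 3 months, with a median of -0.15, and 9 at 12 months, with a median of 0.05. Of all genes 60.6% and 60.0% were lower at 72 h, with a median of -0.09 in each age. At 48 h 13 and 19 of the 21 were higher, with medians of 0.12 and 0.25. Over all genes 39.2% and 48.1% were higher at 48 h, with medians of -0.09 and -0.02. Uhrf1, which brings the maintenance DNA methyltransferase to replicating DNA, had 3.25 at 48 h against 0.61 at 0 h at 3 months and 2.98 against 0.84 at 12 months. Suv39h1, a histone methyltransferase of heterochromatin, had 5.98 against 4.44 and 5.74 against 4.14. At 72 h both stayed above their 0 h level, Uhrf1 at 1.98 and 1.93 and Suv39h1 at 4.89 and 5.01. Of the 21 genes, 1 was higher by 1 or more at 72 h at 3 months and 2 were at 12 months. Of all genes 2.46% and 2.92% were. None of the 21 was lower by 1 or more, where 2.02% and 1.01% of all genes were.

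At 12 months and 48 h, and at 3 months and 72 h, the differences between ATRi and untreated means were under 1 in every Zfp gene. At 48 h the median difference was -0.03, against -0.001 over all genes, and the extremes were 0.64 for Zfp128 and -0.80 for Zfp715. At 3 months and 72 h the median was 0.07, against -0.003 over all genes, with 209 Zfp genes above 0 (69.2%, against 49.0% of all genes). No Zfp gene reached a difference of 1 in either comparison, where 0.324% of all genes were higher and 0.252% lower at 48 h, and 0.054% and 0.126% at 3 months and 72 h. With borrowed spread limma called 0 Zfp genes in both, with 21 at 48 h and 32 at 3 months at an unadjusted p under 0.05. Of all genes it called 0% higher and 0.018% lower at 48 h, and 0% higher and 0.00899% lower at 3 months. Zfp174 had 1.57 in 3-month ATRi livers and 0.97 in untreated ones, and Zfp346 had 2.19 and 1.55.

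At 12 months and 72 h, where single livers were deposited, ATRi went with changes in both directions. Liver M546 stood apart from the other 3: over the Zfp genes its correlation with the untreated 12-month mean was 0.96, against 0.89 to 0.91 for M545, M547 and M548, and over all genes it was 0.98 against 0.94 to 0.95. Against the untreated mean, M546 had 2 Zfp genes higher and 2 lower by 1 or more, whereas M545 had 12 and 10, M547 had 9 and 18, and M548 had 17 and 15. The neutrophil markers were at 7.13 in M546 and between 4.99 and 5.34 in the other livers, and their part was not tested. The deposited mean of the group also differs from the mean of its 4 livers, by a median of 0.08 over the Zfp genes and 0.09 over all genes. It lies outside the range of the livers in 49 of the 302 Zfp genes and in 2136 of all 11119 genes. In the test each gene's livers were therefore moved by a constant to the deposited mean. That constant was set from all 4 livers and was kept when 1 of them was left out.

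Against untreated livers, 21 Zfp genes rose and 8 fell in limma, where 9.04% of all genes rose and 2.38% fell. The Zfp median was 0.03, against 0.08 over all genes. The count was 0 without M545, without M547 or without M548, where 83, 69 and 82 Zfp genes had an unadjusted p under 0.05. It was also 0 when the livers were used as deposited, with 117 at that unadjusted p. Without M546, 49 Zfp genes rose and 16 fell, where 18.8% of all genes rose and 5.32% fell. The livers in that fit kept the shift set with M546 included, and its part in these counts was not tested. With each column centred on its own median, which was 2.86 in the ATRi mean and 2.63 in the untreated mean, 6 rose and 41 fell, where 4.75% of all genes rose and 8.69% fell. The split between genes that rose and fell thus turned with the scaling, in the Zfp genes and over all genes. The hepatocyte markers were at 15.91 in ATRi livers and 16.26 in untreated ones and the macrophage markers at 9.48 and 9.63, and their part was not tested.

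**Figure D4:**
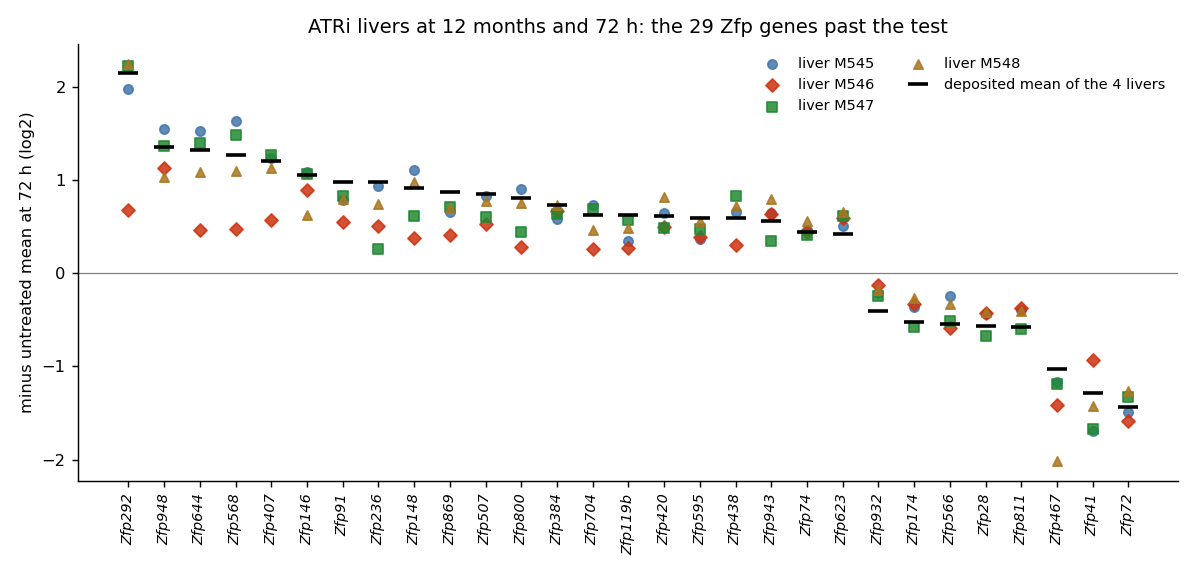
Level (log2) in each of the 4 ATRi livers at 12 months and 72 h, minus the untreated mean, for the 29 Zfp genes past the limma threshold, with the deposited mean of the group as a black bar. Liver M546 (red diamonds) lies nearest to 0 for Zfp292, Zfp644, Zfp568 and Zfp407, and the black bar lies outside the range of the livers in some genes, such as Zfp91.

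Zfp292, the counterpart of a rat factor that activates the growth hormone gene, had the largest change. Its levels were 4.0, 2.70, 4.24 and 4.27 in livers M545, M546, M547 and M548, against an untreated mean of 2.02. All 4 livers were higher, M546 by the least. The deposited mean was 4.16, the difference 2.14 ± 0.39 (SE) and the adjusted p 0.043 (limma). Without M546 the difference was 2.51 ± 0.16 and the adjusted p 0.0079 (limma). That fit kept the shift set with M546 included, so this difference was larger than that of any liver as deposited. In the 3-month mice the ATRi mean was 1.63 and the untreated mean 1.90.

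The RefSeq promoter of Zfp292, at chr4:34882899-34883198 on the minus strand, is printed because this gene changed most, again with every CG in capitals.
Zfp292: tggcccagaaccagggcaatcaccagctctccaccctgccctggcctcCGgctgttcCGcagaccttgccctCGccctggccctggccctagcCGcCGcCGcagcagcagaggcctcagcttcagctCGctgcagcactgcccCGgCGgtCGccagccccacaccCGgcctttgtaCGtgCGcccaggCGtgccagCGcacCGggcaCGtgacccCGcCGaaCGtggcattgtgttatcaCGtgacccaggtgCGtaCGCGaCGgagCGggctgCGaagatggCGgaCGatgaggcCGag

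It holds 30 CG and is 70.3% G or C, against medians of 14 and 54.7% for Zfp promoters, and has 1 match to AAGATGGC, the core of the YY1 motif, which 6.27% of Zfp promoters and 4.26% of those of measured genes hold.

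Zfp644, a partner of the histone methyltransferases G9a and GLP, had 3.13, 2.07, 3.01 and 2.69 in the 4 livers, against 1.61 untreated, a change of 1.32 ± 0.27 with an adjusted p of 0.043. Zfp948, a KRAB gene, had 3.43, 3.01, 3.25 and 2.91, against 1.88, a change of 1.36 ± 0.19. Zfp568, the KRAB repressor of a placental Igf2 transcript, had 3.57, 2.41, 3.42 and 3.03, against 1.93, a change of 1.27 ± 0.29. In these 3 genes all 4 livers lay above the untreated mean. Zfp407 had 2.61, 1.95, 2.65 and 2.50, against 1.38, and Zfp146, a protein made almost wholly of fingers, had 2.27, 2.08, 2.25 and 1.81, against 1.18. Zfp91, an E3 ligase of the non-canonical NF-kB pathway, had 4.34, 4.10, 4.38 and 4.35, against 3.55, and its deposited mean of 4.54 lay above all 4 livers.

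Among the genes that fell, Zfp72 had 1.28, 1.18, 1.44 and 1.5 in the 4 livers, against 2.77 untreated, a change of -1.44 ± 0.17 with an adjusted p of 0.043. In Zfp72 liver M546 lay farthest from the untreated mean, whereas in Zfp292, Zfp644, Zfp568 and Zfp407 it lay nearest. Zfp41 had 1.43, 2.19, 1.46 and 1.70, against 3.12, a change of -1.29 ± 0.23. Zfp467, already lower at 48 h, had 4.32, 4.06, 4.29 and 3.47, against 5.48, a change of -1.03 ± 0.23. Its deposited mean of 4.45 lay above all 4 livers, so this change is smaller than that of any liver as deposited. Zfp174 fell to 0.57 in the deposited mean, against 1.09 untreated, and in M547 it was at the lowest value of the column. The smallest changes that passed were 0.42 for Zfp623 and -0.41 for Zfp932.

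Gene length moved with this comparison. Over 301 Zfp genes the Spearman correlation of gene length with the ATRi difference at 12 months and 72 h was 0.37, and over 10409 genes it was 0.42. At 3 months and 72 h it was -0.06 over both. These correlations are across genes, which are not independent and share the same livers, and are given as a description. Zfp407 is the longest of the Zfp genes at 461699 bases, and Zfp292 and Zfp644 are 79848 and 80549 bases long, above the upper quartile of 26241. The part of gene length in the result was not tested. Length moved with the time after PH too: at 72 h against 0 h Zfp genes up to the lower quartile of 12329 bases had medians of -0.46 at 3 months and -0.30 at 12 months, and those above the upper quartile -0.19 and -0.08. Over all genes the same length limits gave -0.16 and -0.18 for short genes and -0.05 and -0.02 for long ones.

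**Figure D5:**
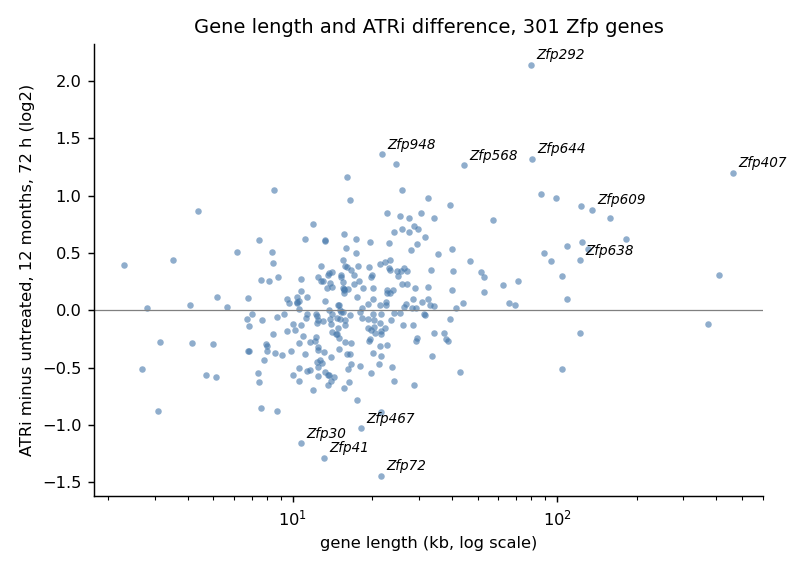
Gene length (kb, log axis) and the difference between the deposited ATRi and untreated means at 12 months and 72 h (log2) for the 301 Zfp genes with a GENCODE M21 length. Long genes such as Zfp292, Zfp644 and Zfp407 lie high and the Spearman correlation is 0.37.

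Whether the effect of ATRi differed between ages was tested as an interaction. No Zfp gene passed (0 of 302, where 0.00899% of all genes were higher and 0% lower), although 35 were higher and 46 lower at an unadjusted p under 0.05. The largest interactions were those of Zfp292 (2.41 ± 0.55, adjusted p 0.11 by limma) and Zfp72 (-1.80 ± 0.24, adjusted p 0.10). Without M546, 18 Zfp genes were higher and 16 lower, against 9.49% and 2.30% of all genes.

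The remaining 3 comparisons of the 12-month ATRi livers had more calls. Against 3-month ATRi livers at 72 h, 27 Zfp genes rose and 49 fell, where 18.3% and 9.96% of all genes did. With centred columns 12 rose and 96 fell, against 12.8% and 21.5% of all genes, so that the split of all genes turned as well. Without M547 the counts were 10 and 8, against 8.82% and 2.97%, without M548 they were 9 and 19, against 9.62% and 3.80%, and without M545 they were 12 and 37, against 13.7% and 7.04%. Neutrophil markers were at 6.07 in 12-month and 1.77 in 3-month ATRi livers and macrophage markers at 9.48 and 7.89, and their part was not tested. Zfp292 (2.53 ± 0.39), Zfp407 (1.80 ± 0.19) and Zfp644 (1.40 ± 0.27) rose most, and Zfp72 (-1.43 ± 0.17), Zfp109 (-1.22 ± 0.15) and Zfp661 (-1.14 ± 0.18) fell most. Zfp109, a KRAB gene, had 1.42, 1.05, 1.24 and 1.24 in the 12-month livers, against a 3-month mean of 2.44.

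Against 12-month ATRi livers at 48 h, 34 Zfp genes rose and 91 fell at 72 h, where 19.4% and 17.8% of all genes did. The Zfp median was -0.27, against -0.01 over all genes. Centring gave 25 and 124, against 16.3% and 24.9% of all genes, and leaving out M547 gave 19 and 61, against 13.4% and 10.2%. Neutrophil markers were at 6.07 at 72 h and 2.01 at 48 h and macrophage markers at 9.48 and 7.80, and their part was not tested. Zfp72 (-1.99 ± 0.18), Zfp101 (-1.71 ± 0.18), Zfp174 (-1.69 ± 0.14), Zfp354a (-1.63 ± 0.17) and Zfp473 (-1.58 ± 0.18) fell, with adjusted p of 0.0039 or less for each in limma. Zfp473 had 0.56, 0.89, 0.97 and 1.25 in the 72 h livers, against a 48 h mean of 2.27. That 48 h ATRi mean was itself above the untreated 48 h mean of 1.64. Zfp292 (2.78 ± 0.42), Zfp407 (1.92 ± 0.20) and Zfp148 (1.498 ± 0.24) rose most.

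Against 12-month livers at 0 h, 47 Zfp genes rose and 115 fell in ATRi livers at 72 h, where 25.6% and 22.5% of all genes did. Centring gave 32 and 170, against 19.1% and 40.3% of all genes, and leaving out M547 gave 38 and 72, against 19.3% and 14.1%. Neutrophil markers were at 6.07 at 72 h and 4.91 at 0 h and macrophage markers at 9.48 and 8.52, and their part was not tested. Zfp354a had 1.30, 1.03, 1.28 and 0.96 in the 4 livers, against 3.19 at 0 h, a change of -2.06 ± 0.14 with an adjusted p of 0.00070 (limma). Zfp873 had 1.002, 1.12, 0.87 and 1.40, against 2.75, a change of -1.73 ± 0.15. Zfp174 had 0.73, 0.76, 0.51 and 0.83, against 2.198, a change of -1.63 ± 0.11. In these 3 genes every liver, M546 included, lay more than 1 below the 0 h mean. The 0 h mean is shared with the untreated comparison at 12 months, so the counts of the 2 comparisons are not independent.

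Single livers varied most in Zfp758 (SD 1.03, n = 4), with 1.88, 3.59, 3.23 and 1.48, and in Zfp280b (SD 0.87), with 4.02, 4.44, 2.89 and 2.63. M546 was the highest liver in both genes, whereas it was the lowest in Zfp292, Zfp644 and Zfp72.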

How the data were processed

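PolyA RNA of 40 samples in 9 groups was measured. The authors deposited 12 tables of 11119 genes with values per gene on a log2 scale, named sigma in the file headers and not defined there: 9 group means and 4 single livers. The build was GRCm38 (mm10), per the submitters' processing notes; aligner, counting, scaling and depth are not given in the sources used here. Zfp genes were matched to GENCODE M21 (301 of 302); fingers were found by pattern and KRAB and SCAN boxes with HMMER 3.4 (E 0.0001). Promoters came from RefSeq (GRCm38.p6).

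From the deposited values, differences of means were taken, and limma 3.58.1 (R 4.3.3; trend, robust) was fitted over all 11119 genes, with the 4 livers moved to the deposited mean, the other means weighted by their number of mice, and 3 residual degrees of freedom. The fit was tested on simulated data in which the group mean equalled the mean of its livers. Neither the moving of the livers nor a liver standing apart was tested there. The 4 livers limit the precision. Named genes were the extremes of each comparison, the extremes of mean level, the extremes of spread among livers and the role lists. Zfp738, Zfp623 and the genes that begin, end or fill a named genomic run, such as Zfp712 and Zfp354b, fall outside this rule and were chosen after their values were seen. The members and lists were chosen with earlier results of these data known. Python used numpy 2.4.6, pandas 2.3.3, scipy 1.17.1 and matplotlib 3.10.9.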

Additional observations from a re-analysis of the deposited data

Results flagged for a closer look

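Among 126 Zfp genes examined in the 4 ATRi livers of 12 months and 72 h, 8 had 1 liver far from the other 3 by Dixon's criterion. Chance alone meets this criterion in about 1 group in 20 where groups are not picked by their values. All 8 genes fall under the naming rule given above, which draws partly on values of these same livers. That rate therefore cannot be set against the 8. Liver M546 stood apart in 4 of them: Zfp292 at 2.701, with the others between 4.0 and 4.27, Zfp91 at 4.098, with the others between 4.34 and 4.38, Zfp13 at 1.543, with the others between 1.18 and 1.24, and Zfp503 at 0.867, where the other 3 were at the lowest value of their columns. Liver M547 stood apart in 3: Zfp451 at 2.136, with the others between 2.58 and 2.61, Zfp28 at 0.893, with the others between 1.14 and 1.15, and Zfp811 at 0.65, with the others between 0.84 and 0.88. Liver M545 stood apart in Zfp950 at 3.885, with the others between 2.77 and 2.96.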

How the results depend on the processing

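With centred columns the split of calls turned for ATRi at 12 months and 72 h, to 6 higher and 41 lower, and for 48 h against 0 h at 12 months, to 6 and 13. The count called lower in both ages with 1 liver left out, 15 to 55, was chosen after seeing the data. Over all genes the share went from 1.53% (without M547) to 7.36% (without M546). No paired analysis was possible because single-mouse values are given for 1 group only. Centring differences on the median of all genes gave Zfp medians of -0.0805 (age at 0 h), -0.0585 (3 months, 48 h against 0 h), -0.242 and -0.1805 (72 h against 0 h at 3 and 12 months), -0.2415 (72 h against 48 h, 12 months), -0.047 (ATRi at 12 months and 72 h) and -0.125 (ATRi effect, 12 minus 3 months), and counts of 1 (age at 0 h) and 5 (72 h against 48 h, 12 months) at a difference of 1. Quantile normalization gave -0.283 (3 months, 72 h against 0 h), -0.0976 (ATRi at 12 months), -0.234, -0.330 and -0.373 (12-month ATRi livers against 3-month ATRi, 48 h ATRi and 0 h) and -0.180 (ATRi effect). The ATRi median at 12 months, 0.03, thus changed sign under both. Genes with a level of 1 or more gave -0.394 (72 h against 48 h, 12 months), -0.019 (ATRi at 12 months), -0.152, -0.315 and -0.278 (the same 3 comparisons). Livers as deposited gave -0.151, -0.305 and -0.288 for these and -0.101 for the ATRi effect. With borrowed spread limma called 17 (age at 0 h), 28, 91 and 24 (3 months: 48 h and 72 h against 0 h, 72 h against 48 h), 13, 53 and 31 (the same at 12 months), 0 (age at 48 h, with 18 at an unadjusted p under 0.05) and 1 (age at 72 h). For ATRi at 12 months and 72 h, limma called 0 with livers as deposited, 15 without trend and robust fitting, 47 with centred columns, and between 0 and 65 with 1 liver left out (65 without M546). In the fit without trend and robust fitting 6.04% of all genes rose and 1.72% fell. With 1 liver left out the counts were 18 (without M547) to 95 (without M546) against 3-month ATRi, 80 (without M547) to 134 (without M546) against 48 h ATRi, with medians from -0.268 (without M548) to -0.222 (without M547), and 0 to 34 (without M546) for the ATRi effect. Without M546, 22.7% of all genes rose and 11.8% fell against 3-month ATRi, and 21.6% and 19.3% did against 48 h ATRi. The cause of these changes was not tested. Depth is unknown, so low levels carry no stated limit.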
